A study of Mus musculus with 5 samples.

Results

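Nuclear factor I (NFI) and CCAAT/enhancer-binding proteins (C/EBP) were examined in GFP+ cells sorted from embryonic mouse lungs. The 8 genes are Nfia, Nfib, Nfic and Nfix of the NFI family and Cebpa, Cebpb, Cebpd and Cebpg of the C/EBP family. Their members were all probe sets of the array that carry the symbol of 1 of these genes and no other. This gave 31 of 45037 probe sets and 8 of 18193 genes. The rule itself used no value, but the genes were chosen with earlier results of these data known. Of the 31 probe sets, 23 belong to NFI genes and 8 to C/EBP genes.

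The study compared developing multiciliated cells with progenitors of the lung tip. The multiciliated side was analysed here, as 5 biological replicates with 1 Affymetrix array each; the tip progenitors are not analysed here, so the levels belong to 1 group and no fold change was computed. All 5 arrays hold FOXJ1-GFP+ cells of E17.5 lungs, from FOXJ1-GFP reporter mice crossed to outbred ICR mice. The reporter puts GFP under the promoter of FOXJ1, the regulator that turns on the genes of motile cilia. Single cells were made with trypsin and EDTA, and RNA of the sorted fraction was amplified before hybridisation. The sources used here do not give the number of embryos in a replicate.

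NFI proteins bind DNA as dimers to the palindrome formed by TTGGC and its mirror, and also, more weakly, to one arm of it. In the mouse, Nfib is needed for the fetal lung to mature. C/EBP proteins are basic leucine zipper factors that pair with each other and with relatives. Cebpa promotes the maturation of distal lung epithelium, Cebpb and Cebpd are induced by cytokines, glucocorticoids and cell stress, and Cebpg, which lacks an activation domain of its own, works as the partner of other zipper factors such as Atf4. Despite the family name, the CCAAT box of promoters is also, and for many genes mainly, the site of the NF-Y complex of Nfya, Nfyb and Nfyc.

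The deposited values are log2 signals and ran between 2.37 and 15.24. A probe set was called above background when its mean exceeded 7.00, the level under which 95% of 137 genes lay that lung epithelium should not use (odorant, pheromone and taste receptors and genes of other tissues), in a one-sided limma test at an adjusted p under 0.05. By this rule 49.3% of all probe sets and 65.4% of all genes were called. Pearson's r between arrays, taken across probe sets, lay between 0.987 and 0.994. To check the label, markers of multiciliated cells were examined, and 9 of 9 were called, with list means of 12.94 to 13.06 on the 5 arrays; Foxj1 was at 12.82. Markers of other cells were also called, 9 of 9 for alveolar type 2 cells, 10 of 10 for alveolar type 1 cells, 7 of 8 for club cells, 10 of 10 for endothelium, 9 of 10 for mesenchyme and 10 of 13 for white blood cells. Array means of these lists reached 12.43 for alveolar type 2 cells, 11.47 for endothelium and 9.55 for white blood cells, although Ptprc at 7.33, C1qa at 6.65 and Itgam at 4.23 did not pass the test. In such bulk samples fewer cells of a type and less RNA per cell cannot be told apart, and which cells carried a member's signal was not tested.

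All 8 genes were called above background, where 65.4% of genes were. Of the member probe sets, 23 of 31 were called, where 49.3% of all probe sets were. Of the NFI probe sets 16 of 23 were called, and of the C/EBP probe sets 7 of 8. Nfix and Cebpd were among the candidates that the study drew from these same arrays, so their calls are not independent evidence. A probe set's signal depends on its own probes, so members' levels were compared between arrays for 1 probe set and not between members. The calls set each probe set against a level taken from other genes, so this limit applies to them too.

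**Figure D1:**
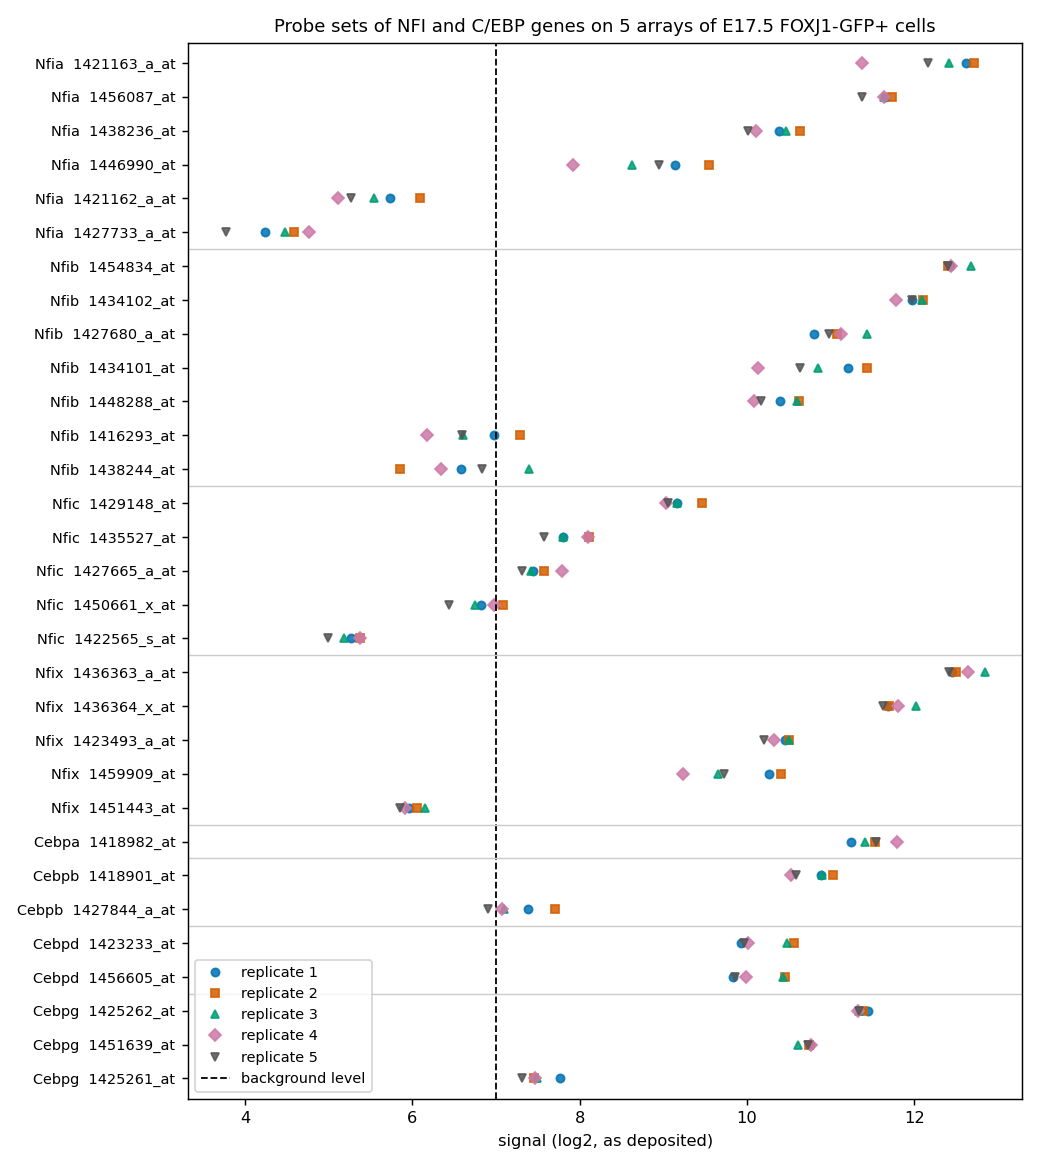
Signal (log2, as deposited) of the 31 member probe sets on the 5 arrays, 1 line per probe set and 1 symbol per replicate, with the background level of 7.00 as a dashed line. All 8 genes have a probe set right of the line on every array, and Nfia, Nfib, Nfic, Nfix and Cebpb also have probe sets that lie around or left of it.

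Nfia, on chromosome 4, had 4 of 6 probe sets above background, and they did not vary alike. Nfia 1421163_a_at read 12.62, 12.71, 12.41, 11.37 and 12.17 in replicates 1 to 5, a mean of 12.26 ± 0.54 (SD, n = 5; adjusted p = 2.25e-08, limma). Replicate 4 lay apart from the other arrays, and the highest and lowest values differed by 1.34. Nfia 1446990_at read 9.13, 9.55, 8.63, 7.92 and 8.95, with the same arrays highest and lowest (mean 8.83 ± 0.61, adjusted p = 5.22e-05). Nfia 1456087_at read 11.65, 11.73, 11.64, 11.64 and 11.37 (11.60 ± 0.14, adjusted p = 1.75e-10), so that by this probe set Nfia on replicate 4 was even with replicates 1 and 3. Nfia 1438236_at averaged 10.32 ± 0.26 and was lowest on replicate 5, at 10.01. The remaining Nfia probe sets, 1421162_a_at and 1427733_a_at, averaged 5.55 ± 0.39 and 4.37 ± 0.38 and were not called.

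Nfib, on the same chromosome, was called by 5 of 7 probe sets. Nfib 1454834_at read 12.42, 12.40, 12.67, 12.44 and 12.40 (12.47 ± 0.12, adjusted p = 6.75e-11). Replicate 3 was the only array above the rest, which lay between 12.40 and 12.44. Nfib 1434102_at averaged 11.98 ± 0.13, Nfib 1427680_a_at 11.08 ± 0.23 and Nfib 1448288_at 10.37 ± 0.25. Nfib 1434101_at was the variable one, with 11.21, 11.43, 10.85, 10.13 and 10.63 (10.85 ± 0.51, adjusted p = 1.29e-07). It was highest on replicate 2 and lowest on replicate 4, as the variable Nfia probe sets were. Nfib 1416293_at at 6.73 ± 0.42 and Nfib 1438244_at at 6.60 ± 0.57 did not pass the test, and each exceeded 7.00 on 1 array.

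Nfic, on chromosome 10, had 3 of 5 probe sets above background. Nfic 1429148_at read 9.16, 9.46, 9.16, 9.03 and 9.05 (9.17 ± 0.17, adjusted p = 2.56e-08), with replicate 2 above the other arrays. Nfic 1435527_at averaged 7.87 ± 0.23 and Nfic 1427665_a_at 7.50 ± 0.18 (adjusted p = 3.35e-05 and 0.000469). Both passed the test by less than 1 log2 unit. Nfic 1450661_x_at at 6.81 ± 0.25 and Nfic 1422565_s_at at 5.24 ± 0.16 did not pass.

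Nfix, on chromosome 8, was called by 4 of 5 probe sets. Nfix 1436363_a_at read 12.45, 12.49, 12.84, 12.63 and 12.42 (12.57 ± 0.17, adjusted p = 1.23e-10) and Nfix 1436364_x_at read 11.68, 11.70, 12.02, 11.81 and 11.62 (11.77 ± 0.16). Both put replicate 3 on top, and their profiles over the arrays differed by 0.02 on average. Nfix 1459909_at ran differently, with 10.26, 10.40, 9.65, 9.24 and 9.72 (9.86 ± 0.47, adjusted p = 6.13e-07), so replicates 1 and 2 were high and replicate 4 low. Nfix 1423493_a_at averaged 10.40 ± 0.13, and Nfix 1451443_at, at 5.99 ± 0.12, was not called.

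The 4 most variable of the called NFI probe sets, from Nfia, Nfib and Nfix, had similar profiles. Likeness was taken as the mean absolute difference, over the 5 arrays, between the profiles of 2 probe sets after each was centred on its mean. Between Nfib 1434101_at and Nfix 1459909_at it was 0.10, between Nfia 1421163_a_at and Nfib 1434101_at 0.12, and between Nfia 1421163_a_at and Nfix 1459909_at 0.16. Within genes, Nfix 1459909_at lay 0.34 to 0.47 from the other called Nfix probe sets, Nfib 1434101_at 0.27 to 0.49 from those of Nfib, and Nfia 1421163_a_at 0.37 from 1456087_at and 0.27 from 1438236_at. Nfia 1446990_at lay 0.18 from Nfia 1421163_a_at, 0.16 from Nfix 1459909_at and 0.18 from Nfib 1434101_at. This measure is not scaled to the spread, so a probe set that varies little lies far from a variable one whatever its order, and the choice by SD by itself sets much of the distance within genes; Nfib 1434102_at and 1448288_at had the same highest and lowest arrays as Nfib 1434101_at. The 4 variable probe sets were the called members with an SD of 0.4 or more, a limit set after the values were seen, where 8.26% of all called probe sets reached it.

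**Figure D2:**
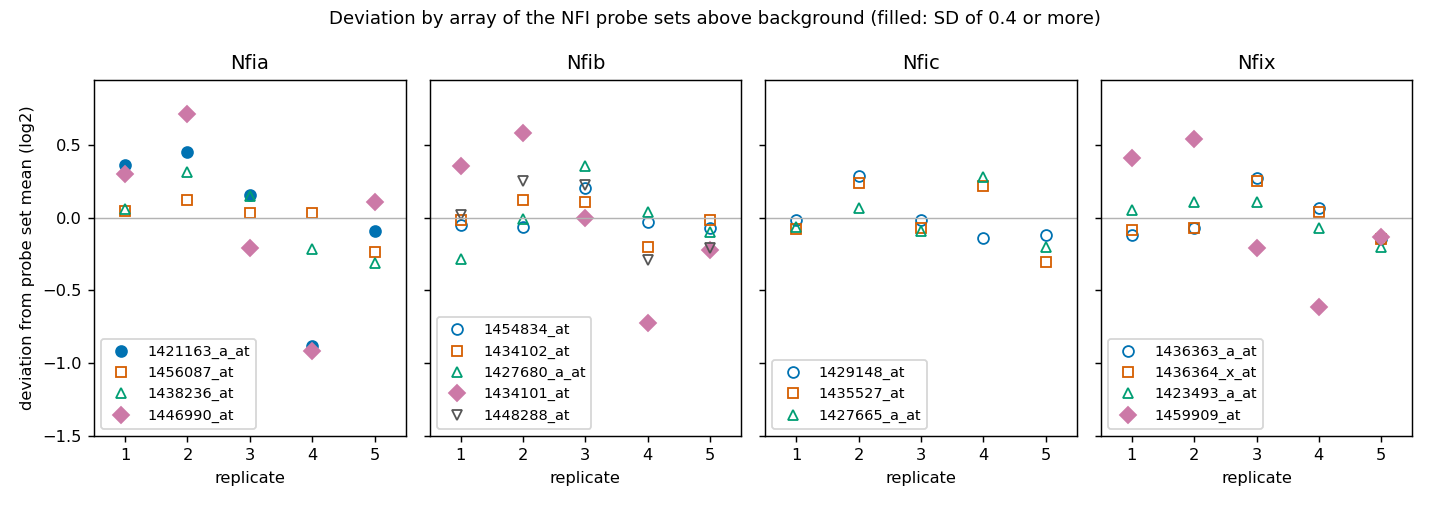
Deviation (log2) of each called NFI probe set from its own mean, by replicate, 1 panel per gene, with filled symbols for the probe sets with an SD of 0.4 or more. The filled symbols of Nfia, Nfib and Nfix lie highest on replicate 2 and lowest on replicate 4, between -0.62 and -0.91, while the open symbols of the same genes stay within 0.36 of 0.

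Highest on replicate 2 and lowest on replicate 4 was the order of 8 of 23 called member probe sets, where 5.77% of all called probe sets had it. The 8 were the 4 variable probe sets, Nfib 1434102_at and 1448288_at, Nfic 1429148_at and Cebpb 1418901_at. This order was noticed in the same values and was not tested. Control probe sets of the array also differed between the arrays, and not all in the same order. The signal of the 3′ minus the 5′ end of beta-actin was 0.61, 0.51, 0.68, 0.72 and 0.67 in replicates 1 to 5, lowest on replicate 2 and highest on replicate 4. For Gapdh the same difference was 1.02, 1.03, 1.43, 1.25 and 1.14, with replicate 3 highest. The part of these in the NFI values was not tested, and neither was the place of each probe set along its transcript.

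By the rule for named genes, the genes above background most like Nfia 1421163_a_at over the 5 arrays were Parg, Thbs1 and Tnrc6b, at differences of 0.11, 0.11 and 0.13. Parg, the hydrolase of poly(ADP-ribose), read 10.76, 10.77, 10.61, 9.78 and 10.19, and Thbs1, the matrix protein thrombospondin, read 11.66, 11.89, 11.47, 10.17 and 11.12. Each was lowest on replicate 4, like Nfia 1421163_a_at. Among the gene lists, the nearest to Nfia 1421163_a_at were the immediate early genes, at 0.29, and the farthest were the white blood cell markers, at 0.70.

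Cebpa and Cebpg are neighbours on chromosome 7, with 62.7 kb and 2 other genes of the table between them. Promoter windows were taken from RefSeq on GRCm38.p6, as the 250 bases before the annotated start, and 6 of 8 genes had one. Nfib and Cebpd had none. Cebpa, Cebpg and Cebpb are shown, since the common motifs of the families fall differently in them, with each match in capitals. The motifs were TATAAA, the CCAAT box CCAAT, the NFI arm TTGGC and the GC box GGGCGG, on both strands.
Cebpa, chr7:35119043-35119292, plus strand: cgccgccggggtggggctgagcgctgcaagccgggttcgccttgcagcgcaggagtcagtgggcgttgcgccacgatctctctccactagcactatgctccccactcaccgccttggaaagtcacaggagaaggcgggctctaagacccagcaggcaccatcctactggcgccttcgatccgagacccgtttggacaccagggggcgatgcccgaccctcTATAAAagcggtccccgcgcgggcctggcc
Cebpg, chr7:35056567-35056816, minus strand: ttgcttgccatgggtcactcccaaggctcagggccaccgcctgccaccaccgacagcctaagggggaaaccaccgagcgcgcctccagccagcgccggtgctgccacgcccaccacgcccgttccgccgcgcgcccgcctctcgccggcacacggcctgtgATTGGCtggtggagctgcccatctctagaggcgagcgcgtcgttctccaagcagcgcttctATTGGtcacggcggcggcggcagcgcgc
Cebpb, chr2:167688665-167688914, plus strand: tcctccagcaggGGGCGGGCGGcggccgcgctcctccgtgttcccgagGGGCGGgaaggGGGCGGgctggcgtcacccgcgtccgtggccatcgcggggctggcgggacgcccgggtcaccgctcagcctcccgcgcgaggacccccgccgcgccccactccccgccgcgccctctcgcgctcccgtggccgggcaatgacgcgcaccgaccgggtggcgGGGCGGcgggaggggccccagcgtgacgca
The Cebpa window held TATAAA 30 bases before the start, as 12.4% of 32851 mouse windows of this length held it anywhere. The Cebpg window held the CCAAT box, read as ATTGG, at 89 and 28 bases before the start, and 33.8% of windows held at least 1; the first overlaps a TTGGC, which 41.5% of windows held. The Cebpb window held 5 GC boxes, of which the first 2 overlap, where 32.7% of windows held any. Of the NFI windows, Nfia held 1 CCAAT box, Nfic 3 GC boxes, and 3 of the 4 Nfix windows a CCAAT box. The Nfix windows from chr8:84772876 and chr8:84775829 also held 1 TTGGC each, and the one from chr8:84773411 held 2 GC boxes. The full NFI palindrome with 5 bases between the arms was in 0.0365% of windows and the C/EBP site TTGCNNCAA in 1.74%, and neither was in a member's window. A match is only a match of letters.

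Cebpa had 1 probe set, 1418982_at, which read 11.24, 11.53, 11.41, 11.79 and 11.55 (11.50 ± 0.20, adjusted p = 5.18e-10). Replicate 4 was highest and replicate 1 lowest. Genes of lung epithelium linked to C/EBP or NFI were called in 10 of 10 cases, where 65.4% of genes were. All of them but Lpcat1 are also in the club or alveolar type 2 marker lists, so these counts overlap. Scgb1a1, the secretoglobin of club cells, was at 13.99, Scgb3a2 at 14.27 and Cyp2f2 at 12.30. Of the surfactant genes in this list, Sftpa1 read 10.99, 12.33, 12.08, 12.07 and 13.22. Sftpa1 was lowest on replicate 1, as Cebpa was, but highest on replicate 5. The alveolar type 2 markers deviated by -0.64, 0.09, -0.11, 0.01 and 0.66 and the club markers by 0.16, -0.10, -0.12, 0.47 and -0.42, against -0.26, 0.03, -0.09, 0.28 and 0.04 for Cebpa; the list nearest to Cebpa was the alveolar type 1 markers, at 0.10. Their part in the Cebpa values was not tested.

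Cebpb, on chromosome 2, was called by 1418901_at, with 10.88, 11.03, 10.89, 10.52 and 10.58 (10.78 ± 0.22, adjusted p = 1.95e-09). Replicates 1 to 3 were above replicates 4 and 5. Cebpb 1427844_a_at read 7.38, 7.70, 7.10, 7.07 and 6.90 (7.23 ± 0.32) and did not pass, with an adjusted p of 0.0889; without replicate 5 it passed, at an adjusted p of 0.0313. The immediate early genes are among the first to respond when cells are stimulated or taken apart. They were called in 12 of 12 cases, where 65.4% of genes were. Fos was at 14.12, Jun at 13.65, Fosb at 12.55 and Junb at 10.23. Their deviations over the arrays were 0.05, 0.18, 0.05, -0.16 and -0.12, against 0.10, 0.25, 0.11, -0.26 and -0.20 for Cebpb 1418901_at, and among the lists they were nearest to it, at 0.07. White blood cells also use Cebpb, and their markers deviated by -0.78, -0.15, 0.19, 0.26 and 0.48. The part of either list in the Cebpb values was not tested.

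Cebpd, on chromosome 16, had 2 probe sets and both were called. Cebpd 1423233_at read 9.93, 10.56, 10.48, 10.01 and 9.96 (10.19 ± 0.31, adjusted p = 2.69e-08). Cebpd 1456605_at read 9.83, 10.46, 10.42, 9.99 and 9.86 (10.11 ± 0.31, adjusted p = 3.06e-08). Both put replicates 2 and 3 above the other arrays by more than 0.4, with no overlap, and their profiles differed by 0.03 on average, so both probe sets showed the same variation. Replicates 2 and 3 were both above the rest in 7 of 23 called member probe sets. Of all called probe sets 6.63% had this order, and of all called genes 7.06%. Besides Cebpd, it was the order of Nfia 1438236_at, Nfib 1434102_at and 1448288_at, Nfix 1423493_a_at and Cebpb 1418901_at. Cebpb 1418901_at had it narrowly, with 10.890 on replicate 3 against 10.885 on replicate 1. The order was noticed in the same values and was not tested.

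The genes most like Cebpd over the arrays were Myct1, Mau2 and Dpt, at differences of 0.04, 0.04 and 0.05. Myct1 read 9.53, 10.04, 10.12, 9.59 and 9.57, and Dpt, which encodes the matrix protein dermatopontin, read 9.43, 10.09, 9.92, 9.39 and 9.40. Genes of the glucocorticoid route were the nearest list, at 0.13 from either probe set. All 8 of them were called, where 65.4% of genes were, and 5 of 8 had replicates 2 and 3 above the rest. Hsd11b1, the enzyme that makes active glucocorticoid, had the order and read 10.41, 10.98, 10.89, 10.28 and 10.15. Nr3c1, the receptor, read 11.50, 11.77, 11.52, 11.33 and 11.44. It had the order narrowly, with 11.516 on replicate 3 against 11.498 on replicate 1. Among targets of the receptor, Per1, Zbtb16 and Klf9 had this order, and Per1 read 11.14, 11.15, 11.50, 10.97 and 11.10. Per1 also had it narrowly, with 11.155 on replicate 2 against 11.139 on replicate 1. Tsc22d3, Fkbp5 and Sgk1 did not have it. Tsc22d3 read 11.04, 11.02, 10.78, 10.42 and 10.65, and Fkbp5 read 10.28, 10.44, 10.47, 10.58 and 10.44. Sgk1 was highest on replicate 5, at 12.70.

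Of the called endothelial markers, 7 of 10 had replicates 2 and 3 above the rest. The list deviated by -0.55, 0.22, 0.41, 0.07 and -0.15, so on replicate 4 it was above 0 where Cebpd was below. Pecam1, an adhesion protein of endothelium, read 10.45, 11.22, 11.39, 10.56 and 10.55. The mesenchymal markers deviated by -0.20, 0.01, 0.25, -0.07 and 0.01, with 3 of 9 called genes in that order, and among immediate early genes 5 of 12 had it. From Cebpd 1423233_at the mesenchymal markers lay at 0.16, the immediate early genes at 0.17 and the endothelial markers at 0.18. From Cebpd 1456605_at the endothelial and mesenchymal markers lay at 0.16 each and the immediate early genes at 0.18. The part of these lists in the Cebpd values was not tested.

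**Figure D3:**
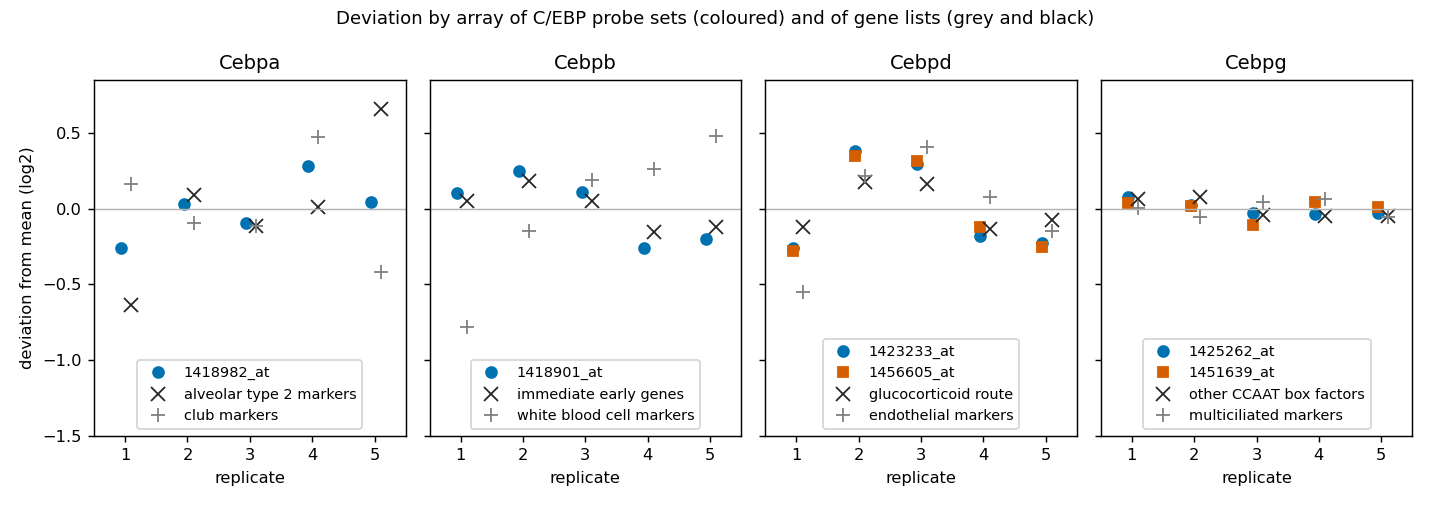
Deviation (log2) by replicate of the C/EBP probe sets with a mean above 10 (coloured) and of 2 gene lists per panel (black and grey), as mean deviation over the called genes of the list. Both Cebpd probe sets lie at 0.29 to 0.38 on replicates 2 and 3 and below 0 elsewhere, and the Cebpg symbols stay within 0.11 of 0.

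The 2 Cebpg probe sets with the highest means had the lowest SDs of the 31. Cebpg 1425262_at read 11.44, 11.39, 11.33, 11.33 and 11.33 (11.37 ± 0.05, adjusted p = 8.55e-11) and Cebpg 1451639_at read 10.75, 10.74, 10.61, 10.76 and 10.73 (10.72 ± 0.06, adjusted p = 1.85e-10). Their SDs were at percentiles 3.29 and 5.74 of those of all called probe sets, and the median SD of called probe sets was 0.18. The third, Cebpg 1425261_at, read 7.76, 7.45, 7.49, 7.46 and 7.31 (7.49 ± 0.16) and was called at an adjusted p of 0.000359. Atf4, its partner, was at 12.95 ± 0.06 and also varied little.

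**Figure D4:**
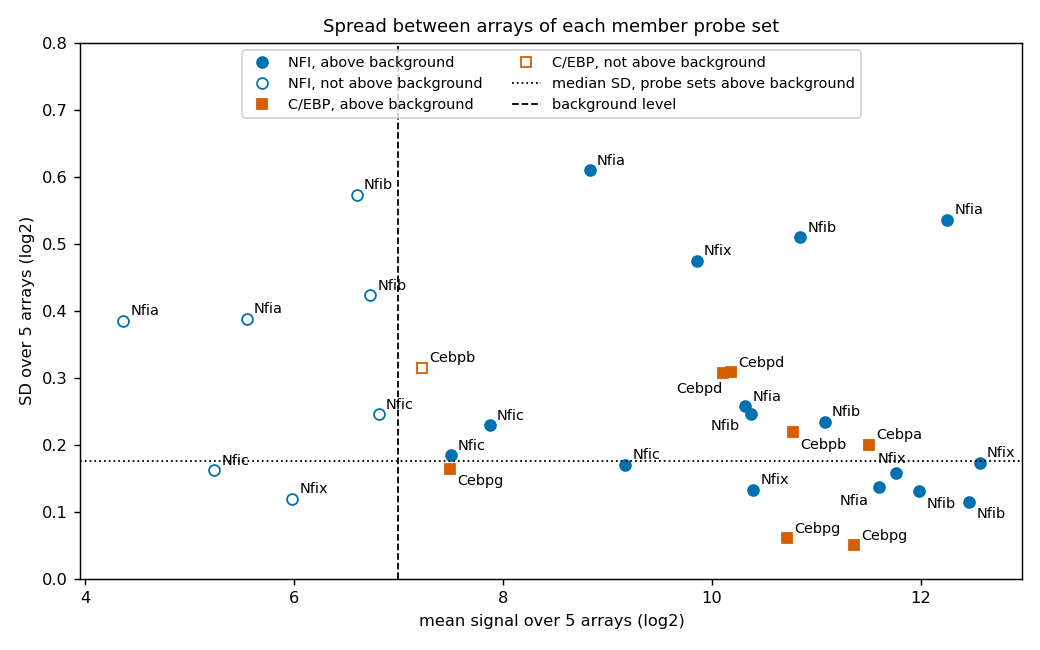
SD over the 5 arrays against the mean signal (both log2) of the 31 member probe sets, with circles for NFI, squares for C/EBP and open symbols for those not called; the dotted line is the median SD of called probe sets, 0.18, and the dashed line the background level. Probe sets of Nfia, Nfib and Nfix above 8 reach SDs of 0.47 to 0.61, and the 3 Cebpg probe sets have SDs of 0.05, 0.06 and 0.16.

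The relatives and regulators of C/EBP were called in 9 of 10 cases, where 65.4% of genes were. Ddit3, which pairs with C/EBP proteins under stress, was at 10.24 ± 0.15, and Atf5, another zipper factor, at 9.88 ± 0.21. Trib1, whose protein directs C/EBP alpha to degradation, read 10.32, 10.68, 9.44, 9.18 and 9.90 (9.91 ± 0.62), and was also highest on replicate 2 and lowest on replicate 4. The one not called was Hlf, at 6.45 ± 0.33. Cebpe and Cebpz were not analysed here.

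The other CCAAT box factors were called in 4 of 4 cases, where 65.4% of genes were. Nfya was at 10.90, Nfyb at 12.25, Nfyc at 12.34 and Ybx1, a DNA- and RNA-binding protein named for the Y box, at 12.76. Their mean deviations lay between -0.05 and 0.08. They were the list nearest to Cebpg 1425262_at, at 0.02, and to Cebpg 1425261_at, at 0.10. For Cebpg 1451639_at the nearest list was the relatives and regulators of C/EBP, at 0.05, before these factors, at 0.06. The measure is not scaled to the spread. A probe set and a list that both vary little therefore lie near each other whatever their order. The lung transcription factors were called in 6 of 6 cases, where 65.4% of genes were. Among them were Foxa1 at 13.02, Foxa2 at 11.44, Gata6 at 9.67 and Nkx2-1, an early marker of lung fate, at 8.22 ± 0.34.

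The IL6 and STAT3 route, which induces Cebpb and Cebpd in other cells, was called in 10 of 11 genes, where 65.4% of genes were. The receptor chains Il6ra and Il6st were at 10.64 and 11.18, Lifr at 10.76, Stat3 at 9.92, and Socs3, the feedback inhibitor, at 11.80. Il6 itself was at 5.80 ± 0.42 and was not called. Of the 10 called genes, 3 had replicates 2 and 3 above the rest, as Cebpd did, and the part of the route in the Cebpb and Cebpd values was not tested.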

How the data were processed

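Gene expression was measured in FOXJ1-GFP+ cells sorted from E17.5 mouse lungs, 5 biological replicates on 1 Affymetrix mouse array each. Groups and replicate numbers were taken from the labels. The authors amplified and biotin-labelled the RNA, used Bioconductor in R and deposited normalized log2 values for each probe set; their summary method is not stated, the scale was inferred from the range of the values, and genes were not centred. The number of arrays limits the precision.

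Probe sets were named through the platform annotation, where 34945 carried 1 gene, 932 several and 9160 none; 64 controls were left out. All 31 member probe sets had the same symbol in the gene table of GRCm38.p6. With limma 3.58.1 in R 4.3.3, each probe set's mean was set against the background level in a one-sided moderated test, with Benjamini-Hochberg adjustment over 45037 probe sets. A gene was represented by its probe set with the highest mean. The background came from 77 receptor genes and 60 of 70 listed genes of other tissues, and 4 of these 137 were themselves called, led by Lhb at 11.15. The p-values measure only the spread between these arrays. The test was tested on simulated data.

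The members and lists were chosen with earlier results of these data known. All members are named with every probe set, as are the first 4 genes of each list other than the marker lists. Up to 5 genes whose call goes against most of a list are also named. Where the highest-mean probe set of a member had an SD of at least 0.25, the 3 genes above background nearest in profile are named. Pecam1 was also the first of its list, and the remaining genes named were chosen after their values were seen. The other lists gave 2 of 5 genes above background for basal cells, Krt15 at 11.11 and Dapl1 at 9.47. The basal markers that failed the test were Krt14 (mean 5.25), Krt5 (6.79) and Trp63 (7.17, adjusted p = 0.391, limma). For neuroendocrine cells 3 of 3 genes passed, where 65.4% of all genes were called. Alternatives changed the background level, the normalization, the call rule, the probe sets of a gene and the replicates. Figures were drawn with matplotlib 3.10.9 in Python 3.11.15.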

Additional observations from a re-analysis of the deposited data

Results flagged for a closer look

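In 3 of 31 member probe sets 1 array lay farther from the others than Dixon's critical ratio of 0.71 for 5 samples; by chance about 1 in 20 groups would. Replicate 5 of Nfia 1456087_at, at 11.3677, was below the rest, with a ratio of 0.7423. Replicate 3 of Nfib 1454834_at, at 12.6709, was above the rest, with a ratio of 0.8507. Replicate 3 of Cebpg 1451639_at, at 10.6111, was below the rest, with a ratio of 0.7938. The wide Nfia, Nfib and Nfix probe sets, in which replicate 4 was lowest, were not among these.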

How the results depend on the processing

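The count of member genes above background was 8 under every alternative tried. Member probe sets counted 19 with the 99th percentile of background genes, 21 with tissue-restricted genes alone, 28 with receptor genes alone, 30 with the cut-off of 5, 22 without probe sets of shared or mixed targets, 24 without 3 background genes (Lhb, Krt10 and Krt1, an alternative chosen after seeing the data), 23 to 24 when a replicate was left out, and 23 otherwise. Genes of the lists counted 105 to 126, and 118 with the level of 7.00. The background level moved the calls near it. At the 99th percentile, 8.65, the mean minus the level was -0.78 for Nfic 1435527_at, -1.15 for Nfic 1427665_a_at, -1.42 for Cebpb 1427844_a_at and -1.16 for Cebpg 1425261_at, and Nfia 1446990_at, 0.18 above it, was no longer called (adjusted p = 0.58, limma). With receptor genes alone, 5.43, it was 0.12 for Nfia 1421162_a_at, which was still not called, 1.30 for Nfib 1416293_at, 1.17 for Nfib 1438244_at, 1.38 for Nfic 1450661_x_at and 0.56 for Nfix 1451443_at. At the cut-off of 5 it was 0.55 for Nfia 1421162_a_at, 1.73 for Nfib 1416293_at, 1.60 for Nfib 1438244_at, 1.81 for Nfic 1450661_x_at, 0.24 for Nfic 1422565_s_at and 0.99 for Nfix 1451443_at. With tissue-restricted genes alone, 7.41, it was -0.18 for Cebpb 1427844_a_at, and Nfic 1427665_a_at and Cebpg 1425261_at, 0.09 and 0.08 above it, were no longer called. Cebpb 1427844_a_at was called without the 3 background genes, with receptor genes alone, at the cut-off of 5 and without replicate 5. The range of Nfia over arrays, 1.34, was 0.73 with all its probe sets averaged and 0.54 without replicate 4, while that of Cebpd stayed between 0.55 and 0.68. No paired analysis was possible because there is 1 group. Depth does not apply to arrays, and a probe set near 7.00 cannot be told from background.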
